A study of Canis lupus familiaris with 9 samples.

Results

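Myostatin and activin signalling genes were described in skeletal muscle of dogs fed ad libitum and of dogs fed to hold their weight. The 10 genes were MSTN, ACVR2A, ACVR2B, ACVR1B, FST, FSTL1, FSTL3, SMAD2, SMAD3 and SMAD7, and a probe set was assigned to a gene where that gene was its only symbol in the platform annotation. The array carried 16 such probe sets, of 43035 in all, for 9 of the 10 genes, and FSTL3 had none. A gene with several probe sets is represented by the brightest one, averaged over the 9 arrays, and the others are given beside it.

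The dogs were intact female beagles, 4 years old, of which 5 were fed ad libitum (dogs 2, 5, 6, 7 and 8) and 4 were controls fed to keep their baseline body weight (dogs 1, 3, 4 and 9). Feeding groups were assigned at random, both groups ate Purina Pro Plan Performance Formula, and muscle was taken at 24 wk after food had been withheld overnight. Each dog gave 1 array of total muscle RNA. The labels do not name the muscle, and food intake and body weight were not used here.

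Myostatin is a secreted ligand of the TGF-beta family that muscle fibres make and that limits muscle mass. Once proteases have freed it from its propeptide, it binds a type II activin receptor, which recruits a type I receptor, and the complex phosphorylates SMAD2 and SMAD3, which enter the nucleus with SMAD4. Activins use the same receptors, follistatin and related secreted proteins hold the ligands away from them, and SMAD7 inhibits the receptors from inside the cell.

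No gene of the group differed between the feeding groups after adjustment over all probe sets. The type II receptor gene ACVR2B had the lowest unadjusted p of the tested genes (0.00431 in limma), with a mean 0.70 log2 units lower in ad libitum dogs. Its adjusted p of 0.796 was the same as that of FSTL1. The secreted FSTL1 had the widest difference, 1.37 log2 units higher with a wide spread between dogs. Values are GCRMA values on the log2 scale, on which a difference of 1 is a 2-fold difference, and values near 2 are typical of probe sets with little signal over the modelled background. Probe sets that exceeded 4 on 4 arrays or more, 18394 in all, were tested with limma. Of these, 0 had an adjusted p under 0.05 (0% of those tested, lowest adjusted p 0.230) and 1088 (5.91%) had an unadjusted p under 0.05. The test without moderated variances also gave 0, and 863 with an unadjusted p under 0.05.

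Of the 9 genes with a probe set, 5 passed the filter on low values: ACVR2A, ACVR2B, FST, FSTL1 and SMAD2. MSTN, ACVR1B, SMAD3 and SMAD7 did not and were left out of the test. Among the 5 tested genes, 0 passed the adjusted threshold in limma and 1, ACVR2B, had an unadjusted p under 0.05, a count to be read against the 5.91% of all probe sets. The mean was higher in ad libitum dogs for 3 of the 5 (FST, FSTL1 and SMAD2), against 48.4% of all tested probe sets. The median difference of the 5, ad libitum minus control, was 0.16, within a range of -0.70 to 1.37, beside a median of -0.0082 over all tested probe sets. For 0 of the 5 tested genes were the groups free of overlap, against 1.44% of all tested probe sets, and the groups also overlapped for each untested gene.

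**Figure D1:**
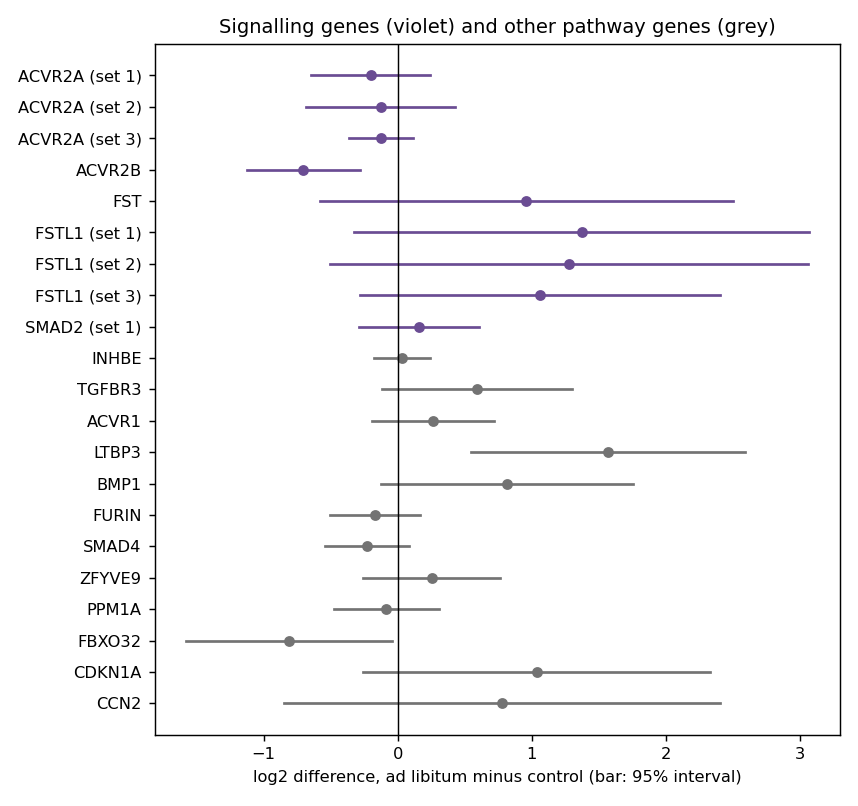
Log2 difference, ad libitum minus control, on the x axis. Violet marks each tested probe set of the myostatin and activin signalling genes. Grey marks the other tested pathway genes named in the text except TRIM63 and PMEPA1. Points are limma estimates and bars their 95% confidence intervals; the intervals of ACVR2B, LTBP3 and FBXO32 lie to one side of 0, those of the others span 0, and no gene passed the adjusted threshold.

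Markers of skeletal muscle fibres were high in every dog. Of 10 such markers 9 had a probe set (CKM had none), and their mean level was 15.04 to 15.57 in ad libitum dogs and 15.37 to 15.56 in control dogs. Fibroblast and matrix genes had a higher mean in ad libitum dogs for all 9 tested of 10, 5 with an unadjusted p under 0.05, and POSTN averaged below 4. The log2 of that list's summed level was 12.94 to 16.82 in ad libitum dogs and 12.82 to 14.27 in control dogs.

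The 9 adipocyte markers all had a higher mean in ad libitum dogs, 3 with an unadjusted p under 0.05, and the log2 of their sum was 13.02 to 14.97 in ad libitum dogs and 12.89 to 14.53 in control dogs. Of 8 macrophage markers 4 were tested and 4 were higher, 3 with an unadjusted p under 0.05. The log2 sum of the list was 7.77 to 11.91 in ad libitum dogs and 7.35 to 8.62 in control dogs. CD68 and AIF1 averaged below 4. CSF1R and TYROBP averaged 4.34 and 4.02, but exceeded 4 only in ad libitum dogs 2, 5 and 6 and were not tested. Control values of the tested CD14 had an SD of only 0.00365, and whether they exceed background was not tested. The mean was higher in ad libitum dogs for 3 of 5 endothelial, 2 of 5 smooth muscle and 2 of 2 Schwann cell markers, and for 0 of 1 tested lymphocyte and 0 of 1 tested satellite cell markers, where PAX7 and MYF5 averaged below 4. The 3′ minus 5′ difference of the GAPDH control probe sets was 2.21 ± 0.0676 in ad libitum dogs (SD, n = 5) and 2.09 ± 0.107 in control dogs (SD, n = 4). No cell marker passed the adjusted threshold in limma. Of all tested probe sets, 48.4% had a higher mean in ad libitum dogs and 5.91% an unadjusted p under 0.05. The marker counts are to be read against those shares. In bulk muscle, fewer cells of a type and less RNA per cell cannot be told apart.

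MSTN encodes myostatin, the ligand. Its 1 probe set read 2.30, 2.71, 2.31, 2.62 and 2.28 in ad libitum dogs 2, 5, 6, 7 and 8, and 2.34, 2.33, 2.31 and 3.08 in control dogs 1, 3, 4 and 9. Control dog 9 stood alone at the top, the other 8 dogs lay between 2.28 and 2.71, and the groups overlapped. The mean was 2.45 ± 0.204 in ad libitum dogs and 2.52 ± 0.378 in control dogs (SD, n = 5 and 4), a difference of -0.070. Without control dog 9 the difference was 0.12, and without each other dog in turn it lay between -0.14 and -0.029. MSTN did not reach 4 on any array and was left out of the test, and in limma run without the filter on low values it had an unadjusted p of 0.717 and an adjusted p of 0.844.

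Among 7534 genes with 1 symbol, the 4 whose values were most like those of MSTN over the 9 arrays were TRAF3IP2 (Pearson r 0.919), CWF19L1 (0.908), RB1 (0.906) and TCIM (0.872). Control dog 9 was the highest dog for each of them as for MSTN. Without that dog r was 0.715 for TRAF3IP2, 0.766 for CWF19L1, 0.673 for RB1 and 0.624 for TCIM. The correlations share arrays and normalization and describe likeness of pattern. These genes had the highest r in a search over 7534 genes on 9 arrays, and MSTN did not reach 4 on any array. A search of this size gives high r values without any link, and these were not tested against that.

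**Figure D2:**
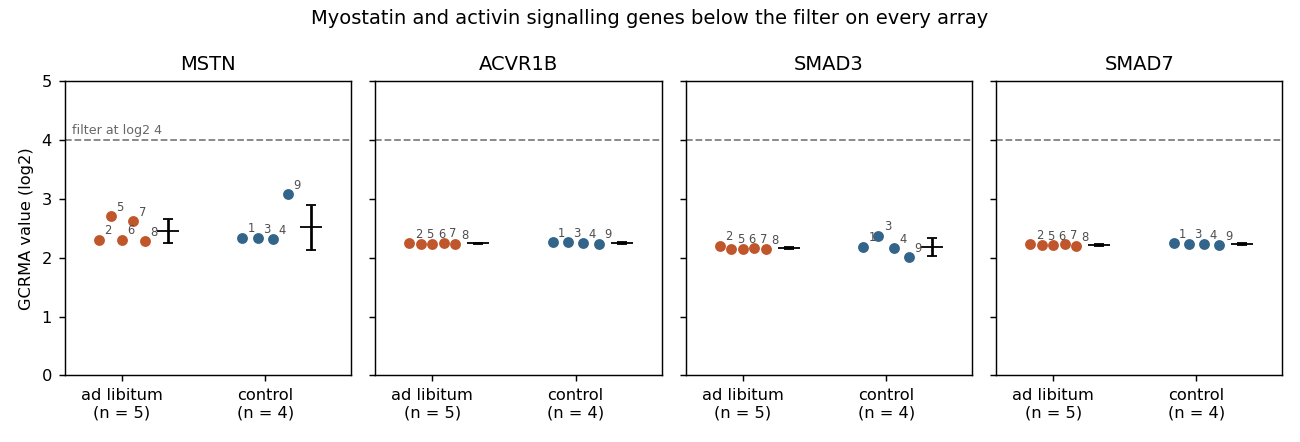
GCRMA value (log2, y axis) of MSTN, ACVR1B, SMAD3 and SMAD7 in each dog, ad libitum left and control right. Points are dogs with their numbers, the dash and bar beside them are mean and SD, and the dashed line marks the filter at 4; all dogs lie below it, and control dog 9 is the highest for MSTN at 3.08.

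Among the receptors, ACVR2B encodes a type II receptor that binds myostatin and activins with high affinity. Its 1 probe set read 6.09, 6.31, 5.94, 6.45 and 6.66 in ad libitum dogs 2, 5, 6, 7 and 8, and 7.22, 6.87, 6.63 and 7.25 in control dogs 1, 3, 4 and 9. Ad libitum dogs lay low and control dogs high, and the groups overlapped through 1 pair, ad libitum dog 8 just above control dog 4. The mean was 6.29 ± 0.284 in ad libitum dogs and 6.99 ± 0.296 in control dogs (SD). The difference was -0.70 (SE 0.19, 95% confidence interval -1.13 to -0.28), with an unadjusted p of 0.00431 and an adjusted p of 0.796 in limma.

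Of the 18394 tested probe sets, 56 (0.304%) had an unadjusted p as small as that of ACVR2B or smaller. With no difference at any probe set, a fraction of about 0.00431, equal to that p in limma, would be expected. The observed share was smaller than that, so the rank does not set ACVR2B apart. Over 23 alternative settings the ACVR2B difference lay between -0.82 and -0.61, with unadjusted p between 0.00166 and 0.0426 and adjusted p between 0.235 and 1.00. With the mean level of the fibroblast and matrix markers as a covariate it was -0.61 (unadjusted p = 0.0426 in limma), and with that of the adipocyte markers -0.75 (unadjusted p = 0.0180). ACVR2B kept its direction and its unadjusted p under 0.05 at every setting run, and never passed the adjusted threshold. The settings reuse the same arrays, and several, such as the filters and variance models, leave the difference itself unchanged. They are therefore no independent support for it.

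ACVR2A encodes the other type II activin receptor. Its brightest of 3 probe sets read 6.63, 7.05, 7.56, 7.41 and 7.54 in ad libitum dogs 2, 5, 6, 7 and 8, and 7.38, 7.35, 7.55 and 7.48 in control dogs 1, 3, 4 and 9. Ad libitum dogs 2 and 5 lay below all 4 controls and the other 3 lay among or just above them. The mean was 7.24 ± 0.397 in ad libitum dogs and 7.44 ± 0.0889 in control dogs (SD), a difference of -0.20 (SE 0.20, 95% confidence interval -0.64 to 0.24, unadjusted p = 0.330, adjusted p = 0.880 in limma). Without ad libitum dog 2 it was -0.049, and with the adipocyte covariate 0.00086.

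The second ACVR2A probe set read 5.46, 5.12, 5.85, 5.69 and 5.69 in ad libitum dogs 2, 5, 6, 7 and 8, and 5.07, 5.51, 6.24 and 5.94 in control dogs 1, 3, 4 and 9, a difference of -0.13 (unadjusted p = 0.620). The third probe set, which exceeded 4 on 5 arrays, averaged 3.96 in ad libitum dogs and 4.08 in control dogs (difference -0.12, unadjusted p = 0.269). All 3 thus had a lower mean in ad libitum dogs with overlapping groups, but they ranked the dogs differently. ACVR1B encodes ALK4, the type I receptor that activins and myostatin recruit, and its probe set read 2.25, 2.24, 2.24, 2.25 and 2.23 in ad libitum dogs 2, 5, 6, 7 and 8, and 2.27, 2.26, 2.25 and 2.24 in control dogs 1, 3, 4 and 9. The 9 ACVR1B values had an SD of 0.0117 and were not tested.

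**Figure D3:**
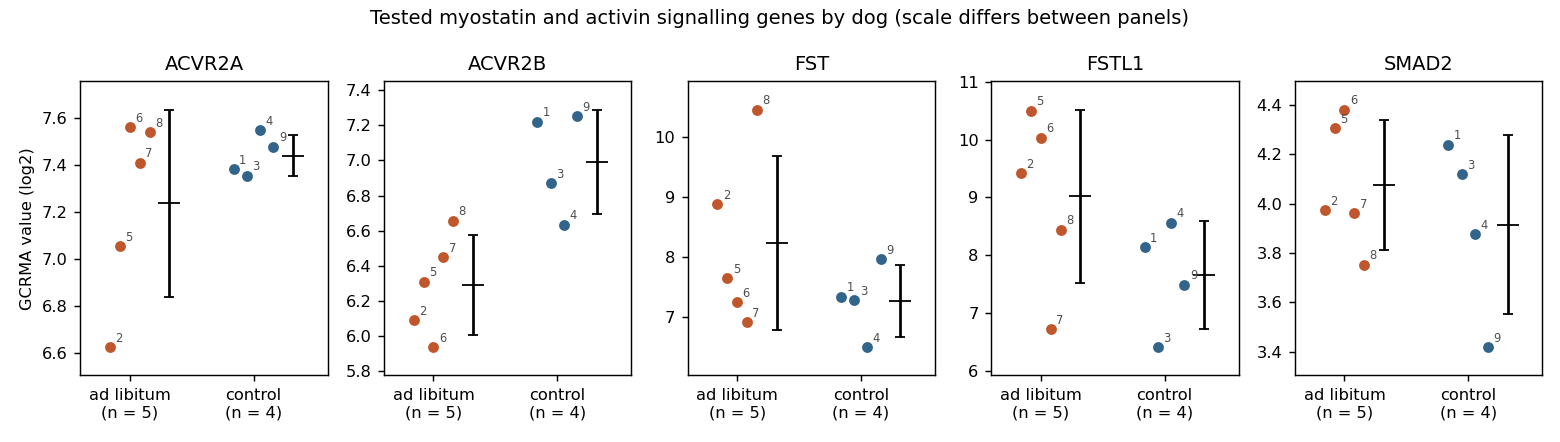
GCRMA value (log2, y axis, scale differs between panels) of ACVR2A, ACVR2B, FST, FSTL1 and SMAD2 in each dog, ad libitum left and control right. Points are dogs with their numbers, and the dash and bar beside them are mean and SD; for ACVR2B the groups meet only at ad libitum dog 8 (6.66) and control dog 4 (6.63), while the other panels overlap more widely.

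Of the secreted antagonists, FST encodes follistatin, which binds activins and myostatin and blocks them. Its probe set read 8.88, 7.65, 7.25, 6.91 and 10.46 in ad libitum dogs 2, 5, 6, 7 and 8, and 7.34, 7.28, 6.50 and 7.97 in control dogs 1, 3, 4 and 9. Ad libitum dogs 8 and 2 stood above every control, and dogs 5, 6 and 7 lay within the control range. The mean was 8.23 ± 1.45 in ad libitum dogs and 7.27 ± 0.601 in control dogs (SD), a difference of 0.96 (SE 0.68, 95% confidence interval -0.58 to 2.50, unadjusted p = 0.193, adjusted p = 0.826 in limma). Without ad libitum dog 8 it was 0.40.

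The adipocyte markers averaged 10.37, 9.85, 9.87, 7.99 and 9.48 in ad libitum dogs 2, 5, 6, 7 and 8, and 9.21, 7.73, 7.13 and 8.54 in control dogs 1, 3, 4 and 9. Ad libitum dog 7 and control dog 4 were the lowest of their groups for FST and for this average, but the highest dogs differed: dogs 8 and 9 for FST, and dogs 2 and 1 for the average. With the adipocyte average as a covariate the FST difference was 0.24 (unadjusted p = 0.789 in limma), and with the fibroblast average it was 0.79 (unadjusted p = 0.424).

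FSTL1 encodes a secreted glycoprotein with a follistatin-like domain, and whether it blocks activins or myostatin was not tested here. Its brightest of 3 probe sets read 9.42, 10.50, 10.03, 6.72 and 8.44 in ad libitum dogs 2, 5, 6, 7 and 8, and 8.14, 6.41, 8.56 and 7.49 in control dogs 1, 3, 4 and 9. Ad libitum dogs 5, 6 and 2 stood above all 4 controls, and dogs 8 and 7 lay within the control range. The mean was 9.02 ± 1.50 in ad libitum dogs and 7.65 ± 0.937 in control dogs (SD), a difference of 1.37 (SE 0.75, 95% confidence interval -0.32 to 3.07, unadjusted p = 0.101, adjusted p = 0.796 in limma). Leaving out 1 dog gave 0.96 (without control dog 3, unadjusted p = 0.263) to 1.95 (without ad libitum dog 7, unadjusted p = 0.00732, adjusted p = 0.247), with 1.00 without ad libitum dog 5.

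The second FSTL1 probe set read 8.03, 9.19, 8.67, 5.30 and 6.88 in ad libitum dogs 2, 5, 6, 7 and 8, and 6.72, 5.13, 7.52 and 5.97 in control dogs 1, 3, 4 and 9 (difference 1.28, unadjusted p = 0.140). The third read 6.33, 7.56, 7.31, 4.92 and 4.96 in ad libitum dogs 2, 5, 6, 7 and 8, and 5.40, 4.45, 5.75 and 5.01 in control dogs 1, 3, 4 and 9 (difference 1.06, unadjusted p = 0.108). All 3 probe sets ranked the dogs alike within each group, from high to low dogs 5, 6, 2, 8 and 7 of the ad libitum group and dogs 4, 1, 9 and 3 of the controls.

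The fibroblast and matrix markers averaged 10.64, 12.32, 11.12, 8.33 and 10.41 in ad libitum dogs 2, 5, 6, 7 and 8, and 9.32, 8.09, 9.07 and 8.74 in control dogs 1, 3, 4 and 9. Over the 9 dogs, FSTL1 and this average held the same rank in dogs 5, 6, 2, 9, 7 and 3, and differed in rank in dogs 8, 1 and 4. With the fibroblast average as a covariate the FSTL1 difference was -0.49 (unadjusted p = 0.205 in limma), opposite in sign to the difference without it, and with the adipocyte average it was 0.25 (unadjusted p = 0.772). FSTL3, a secreted antagonist of activins and myostatin, has no value here.

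**Figure D4:**
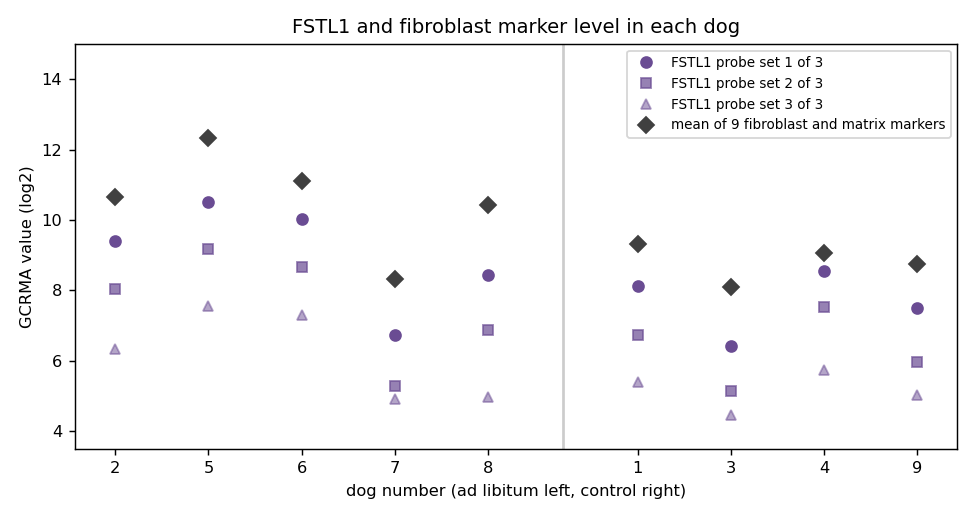
GCRMA value (log2, y axis) of the 3 FSTL1 probe sets (violet) and the mean of 9 tested fibroblast and matrix markers (dark diamonds) for each dog (x axis, ad libitum left, control right). Each symbol is 1 array; ad libitum dogs 5, 6 and 2 are the highest and ad libitum dog 7 and control dog 3 the lowest for both the brightest FSTL1 probe set and the marker mean.

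Inside the cell, SMAD2 is a receptor-activated SMAD. Its brighter probe set lay at the filter, above 4 on 4 arrays, and read 3.97, 4.31, 4.38, 3.96 and 3.75 in ad libitum dogs 2, 5, 6, 7 and 8, and 4.24, 4.12, 3.88 and 3.42 in control dogs 1, 3, 4 and 9. Ad libitum dogs 6 and 5 were highest, control dog 9 lowest, and the other 6 dogs were interleaved. The mean was 4.07 ± 0.262 in ad libitum dogs and 3.91 ± 0.363 in control dogs (SD), a difference of 0.16 (SE 0.20, 95% confidence interval -0.29 to 0.61, unadjusted p = 0.436, adjusted p = 0.899 in limma), and -0.0034 to 0.27 with 1 dog left out, the lowest without control dog 9 and the highest without control dog 1. The other SMAD2 probe set was not tested and averaged 3.78 in ad libitum dogs and 3.59 in control dogs, with ad libitum dog 5 at 4.59.

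SMAD3, the other receptor-activated SMAD of this pathway, had 3 probe sets, none of which was tested. The brightest read 2.20, 2.15, 2.16, 2.16 and 2.14 in ad libitum dogs 2, 5, 6, 7 and 8, and 2.19, 2.37, 2.16 and 2.01 in control dogs 1, 3, 4 and 9, so the control dogs spanned the ad libitum dogs. The other 2 averaged 1.88 and 1.85 in ad libitum dogs, and 1.90 and 1.86 in control dogs. SMAD7, the inhibitory SMAD, read 2.23, 2.22, 2.21, 2.23 and 2.20 in ad libitum dogs 2, 5, 6, 7 and 8, and 2.24, 2.24, 2.23 and 2.21 in control dogs 1, 3, 4 and 9, with overlapping groups and no test.

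Around these genes, a list of 41 other ligands, receptors, extracellular regulators, SMADs and target genes was read in the same way. Of these 39 had a probe set and 19 were tested, 11 with a higher and 8 with a lower mean in ad libitum dogs and a median difference of 0.030. In limma 0 passed the adjusted threshold and 2 had an unadjusted p under 0.05, LTBP3 higher and FBXO32 lower, against 5.91% of all tested probe sets. Of 6 ligand genes only INHBE, which encodes the activin E subunit, was tested. It averaged 4.50 in ad libitum dogs and 4.47 in control dogs, a difference of 0.030 that was -0.0097 without ad libitum dog 7. INHBE values of the control dogs had an SD of only 0.0195, and whether they exceed background was not tested. INHBA, INHBB, INHBC, INHA and GDF11 averaged below 4.

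Of 7 receptors and co-receptors 2 were tested. TGFBR3, the co-receptor betaglycan, averaged 7.98 ± 0.383 in ad libitum dogs and 7.39 ± 0.662 in control dogs (SD), a difference of 0.59 (SE 0.31, unadjusted p = 0.0906 in limma). Leaving out 1 dog gave 0.42 (without control dog 3, unadjusted p = 0.237) to 0.90 (without control dog 1, unadjusted p = 0.00570). With the adipocyte covariate the TGFBR3 difference was 0.15 (unadjusted p = 0.681), and with the fibroblast covariate 0.40 (unadjusted p = 0.375). The second TGFBR3 probe set gave 0.48 (unadjusted p = 0.208 in limma). ACVR1, a type I receptor used mainly by bone morphogenetic proteins, averaged 8.74 in ad libitum dogs and 8.48 in control dogs (unadjusted p = 0.227). The ACVR1 difference of 0.26 was 0.15 without ad libitum dog 8 or without control dog 9 and 0.41 (unadjusted p = 0.0344) without ad libitum dog 7, and its second probe set had a difference of -0.16. The type I receptor genes TGFBR1 and ACVR1C averaged below 4.

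Of 7 proteases and extracellular regulators 3 were tested. LTBP3, a latent TGF-beta binding protein of the matrix, read 6.59, 7.22, 6.64, 5.22 and 6.70 in ad libitum dogs 2, 5, 6, 7 and 8, and 5.38, 4.43, 4.05 and 5.76 in control dogs 1, 3, 4 and 9. The ad libitum dogs other than dog 7 stood above every control, and dog 7 lay within the control range. The mean was 6.47 ± 0.746 in ad libitum dogs and 4.91 ± 0.795 in control dogs (SD), a difference of 1.57 (SE 0.45, 95% confidence interval 0.55 to 2.59, unadjusted p = 0.00687, adjusted p = 0.796 in limma), and a second probe set gave 1.13 (unadjusted p = 0.00364). With the adipocyte covariate the LTBP3 difference was 0.58 (unadjusted p = 0.118), and with the fibroblast covariate 0.72 (unadjusted p = 0.142).

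BMP1, a metalloprotease that cleaves the myostatin propeptide, averaged 5.00 ± 0.922 in ad libitum dogs and 4.19 ± 0.133 in control dogs (SD), a difference of 0.82 (unadjusted p = 0.0808 in limma). It was 0.45 (unadjusted p = 0.0928) without ad libitum dog 5, whose 6.46 was the highest BMP1 value, 1.05 (unadjusted p = 0.0250) without ad libitum dog 7, and -0.12 with the fibroblast covariate. FURIN, a proprotein convertase, averaged 4.98 ± 0.00787 in ad libitum dogs and 5.14 ± 0.323 in control dogs (SD, unadjusted p = 0.289 in limma). The FURIN difference of -0.17 was -0.010 without control dog 9, which read 5.62, and -0.25 without control dog 3. The ad libitum FURIN values were nearly constant, and whether they exceed background was not tested.

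Of 11 SMADs and SMAD regulators 6 were tested, 2 with a higher and 4 with a lower mean in ad libitum dogs and a median difference of -0.024. SMAD4, the partner that SMAD2 and SMAD3 share, averaged 8.87 ± 0.212 in ad libitum dogs and 9.09 ± 0.156 in control dogs (SD), a difference of -0.23 (unadjusted p = 0.134 in limma), which was -0.14 without ad libitum dog 2. The second SMAD4 probe set gave -0.12 (unadjusted p = 0.425 in limma). ZFYVE9, known as SARA, which brings SMAD2 and SMAD3 to the receptor, averaged 5.66 in ad libitum dogs and 5.41 in control dogs (unadjusted p = 0.293). The ZFYVE9 difference of 0.25 was 0.070 without ad libitum dog 8, which read 6.39, and 0.11 without control dog 4. ZFYVE9 read the same value, 5.48, in ad libitum dogs 2, 5 and 7 and control dog 3. Whether that value exceeds background was not tested. PPM1A, a phosphatase that acts on SMAD2 and SMAD3, had a difference of -0.086 (unadjusted p = 0.634), which lay between -0.18 and 0.012 with 1 dog left out. The other PPM1A probe sets gave -0.29, -0.17 and -0.38 (unadjusted p = 0.349, 0.592 and 0.101 in limma).

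Of 10 SMAD-responsive and muscle output genes 7 were tested, 4 with a higher and 3 with a lower mean in ad libitum dogs. PMEPA1 had a difference of 0.025 by its brightest probe set (unadjusted p = 0.926 in limma). The second PMEPA1 probe set gave 0.44 (unadjusted p = 0.0333, adjusted p = 0.796 in limma). FBXO32, the muscle ubiquitin ligase atrogin-1, read 10.66, 10.37, 12.01, 11.48 and 10.83 in ad libitum dogs 2, 5, 6, 7 and 8, and 11.83, 12.03, 11.34 and 12.32 in control dogs 1, 3, 4 and 9. Ad libitum dogs 2, 5 and 8 lay below all 4 controls, and dogs 6 and 7 lay within the control range. The mean was 11.07 ± 0.665 in ad libitum dogs and 11.88 ± 0.413 in control dogs (SD), a difference of -0.81 (SE 0.34, 95% confidence interval -1.58 to -0.039, unadjusted p = 0.0413, adjusted p = 0.796 in limma).

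The other 2 FBXO32 probe sets gave -0.88 each (unadjusted p = 0.0361 and 0.0301), and with the fibroblast covariate the difference was -0.44 (unadjusted p = 0.336 in limma). Of 24 alternatives, 13 gave an unadjusted p under 0.05 for FBXO32. TRIM63, another output gene of the list, averaged 12.47 ± 0.307 in ad libitum dogs and 12.53 ± 0.291 in control dogs (SD), with overlapping groups. This TRIM63 difference, by the brightest of 4 probe sets, was -0.061 (unadjusted p = 0.760 in limma). The other tested TRIM63 probe sets gave -0.012 and 0.029 (unadjusted p = 0.972 and 0.937 in limma). CDKN1A, the cell cycle inhibitor p21, averaged 6.89 ± 1.23 in ad libitum dogs and 5.86 ± 0.445 in control dogs (SD), a difference of 1.04 (unadjusted p = 0.104), which was 0.66 without ad libitum dog 5 and -0.19 with the fibroblast covariate. CCN2, connective tissue growth factor, averaged 9.81 ± 1.58 in ad libitum dogs and 9.03 ± 0.481 in control dogs (SD), a difference of 0.78 (unadjusted p = 0.308 in limma). The second CCN2 probe set gave 0.57 (unadjusted p = 0.506 in limma). The CCN2 difference was 1.42 (unadjusted p = 0.00601, adjusted p = 0.235) without ad libitum dog 7, 0.41 when dog 5 was left out, and -0.98 (unadjusted p = 0.0323) with the fibroblast covariate.

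**Figure D5:**
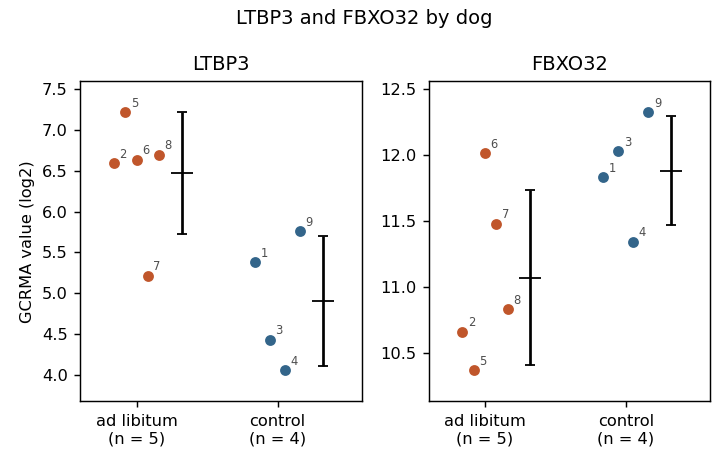
GCRMA value (log2, y axis, scale differs between panels) of LTBP3 and FBXO32 in each dog, ad libitum left and control right. Points are dogs with their numbers, and the dash and bar beside them are mean and SD; 4 of 5 ad libitum dogs lie above every control for LTBP3, and 3 of 5 lie below every control for FBXO32.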

How the data were processed

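RNA from muscle of 9 dogs was hybridised to Affymetrix canine arrays, 1 per dog, after Trizol extraction and labelling with biotin in a 3′ amplification, as the labels' protocols give it. GCRMA, a background correction, quantile normalization and probe set summary, was used by the authors per the submitters' processing notes, with no version given in the sources used here. The base of the deposited log2 values was inferred from their range, 0.652 to 16.6. Quantile normalization can hide a shift shared by most genes. Values of array pairs correlated at 0.976 to 0.994, no 2 arrays were identical, and no batch is named in the labels.

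The 43035 probe sets held 111 control sets, which were left out. The remainder was filtered as described above and fitted with limma 3.58.1 (lmFit, eBayes; two-sided) in R 4.3.3 without covariates, leaving 7 residual and 2.32 prior degrees of freedom. Adjustment was by Benjamini-Hochberg over 18394 probe sets, with a threshold of 0.05, and the fit was tested on simulated data. The number of arrays limits the precision. Covariates were per-dog means of the tested markers of a list. Alternatives covered the filter, a floor, normalization, variance model, array weights, covariates, probe set choice and leaving out each dog.

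The genes, lists, tests and alternatives were chosen with earlier results of these data known. Of the wider list, the 3 genes with the lowest p in each role, and any with an unadjusted p under 0.05, were named. TRIM63 was added beside FBXO32, and PMEPA1 was added for its second probe set. The 4 genes most like MSTN were those with the highest Pearson r.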

Additional observations from a re-analysis of the deposited data

Results flagged for a closer look

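In 4 of 56 groups of dogs examined, 1 dog stood far from the rest of its group by the Dixon ratio of gap to range. For normally spread values, chance alone gives this in about 1 of 20 groups. Whether that rate holds for closely spaced values, such as those below, was not tested. MSTN read 3.08 in control dog 9, with the other 3 controls at 2.31 to 2.34. The second SMAD2 probe set read 4.59 in ad libitum dog 5, with the other 4 ad libitum dogs at 3.48 to 3.62. INHBE read 4.66 in ad libitum dog 7, with the other 4 at 4.45 to 4.47. ZFYVE9 read 6.39 in ad libitum dog 8, with the other 4 at 5.45 to 5.48.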

How the results depend on the processing

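No paired analysis was possible because the animal numbers are unique to each dog. Over 24 alternatives to the filter, normalization, variance model, covariates, probe set choice and dogs, 0 of 119 values of the myostatin and activin genes had an adjusted p under 0.05 (lowest 0.235). Across all probe sets 1 passed with values floored at log2 4 (CISH, -2.97, adjusted p = 0.00461) and 1 without ad libitum dog 8 (LOC489640, -3.97, adjusted p = 0.0411), both named after their values were seen, against 0; leaving out 1 dog gave 0 to 1. Probe sets with an unadjusted p under 0.05 numbered 2151 without ad libitum dog 7, 695 without dog 5 and 474 with the adipocyte covariate, against 1088. Of the main 5 genes, those under 0.05 unadjusted (1) numbered 2 with array weights, 0 of 2 with the second probe set, and 1 to 2 with 1 dog left out (2 without ad libitum dog 7). Those higher (3) numbered 4 of 5 with the adipocyte covariate, 1 of 5 with the fibroblast covariate, 1 of 2 with the second probe set, and 2 to 3 with 1 dog left out. Other pathway genes under 0.05 unadjusted (2) numbered 1 with no filter, with the unmoderated test and with either covariate, 3 of 9 with the second probe set, and 1 to 6 with 1 dog left out (6 without ad libitum dog 7). Directions turned with the adipocyte covariate for ACVR2A (0.00086), PPM1A (0.11), CDKN1A (-0.10) and CCN2 (-0.71), and with the fibroblast covariate for FSTL1 (-0.49), SMAD2 (-0.012), BMP1 (-0.12), PPM1A (0.051), CDKN1A (-0.19) and CCN2 (-0.98, unadjusted p = 0.0323). INHBE was -0.013 with arrays centred on their median and ACVR1 -0.16 by its second probe set. With 1 dog left out, SMAD2 ranged from -0.0034 to 0.27, INHBE from -0.0097 to 0.041 and PPM1A from -0.18 to 0.012. The cause of these changes was not tested. Low signal kept MSTN, ACVR1B, SMAD3 and SMAD7 from the test, and without the filter 1 of 9 genes had an unadjusted p under 0.05.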
